A study of Mus musculus with 6 samples.

Results

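S100 genes encode small calcium-binding proteins, and 10 of them, S100a1, S100a4, S100a6, S100a8, S100a9, S100a10, S100a11, S100a13, S100a16 and S100b, were followed across brain regions and ages in the mouse. They were chosen by name, from the 32285 genes that were counted, and all 10 were detected in every section. Gene expression had been measured with the Visium assay, in which transcripts leaving a thin slice of tissue are caught by barcoded spots below it and each is counted once by a unique molecular identifier (UMI). A spot covers several cells. The 6 coronal sections, 16 µm thick, came from males of the inbred strain C57BL/6J, with 2 sections at 6 months (young), 2 at 18 months (middle) and 2 at 21 months (old). No mouse is labelled with a transgene, a deletion or a treatment. Since 2 males are stated for every age, a section was counted as 1 animal. Both young sections, middle 1 and old 1 lay on slide 1, and middle 2 and old 2 on slide 2.

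S100 proteins carry a pair of EF-hand loops and mostly work as dimers: when calcium binds, the protein opens a face that grips a target protein. Some act inside the cell on annexins, the cytoskeleton or ion channels. Others are released and bind the receptors Ager (RAGE) or Tlr4. In the brain S100b is the best known member, since it is abundant in astrocytes and oligodendrocytes and its protein is used as a marker of glia, whereas S100a8 and S100a9 form calprotectin, the main cytosolic protein of neutrophils.

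The sections held between 2573 and 2973 spots and between 60939185 and 77557934 UMIs each. The median number of UMIs per spot lay between 25904.5 and 30093 in the young and middle sections and was lower in the old sections, at 21766 and 20370. Of 3389 spot barcodes, 1920 occurred in every section, since all capture areas carry the same grid of barcodes. Levels are given as CPM, the UMIs of a gene per 1e6 UMIs of the same section or region. The 16741 spots were clustered with the S100 genes left out, and 16 of the 21 clusters were named as 8 regions from marker genes; the other 5 clusters (1231 spots) kept no name. White matter spots, for example, had Mal, Trf, Cldn11 and Mog, genes of myelin-forming oligodendrocytes, among their 10 leading genes, beside C4b, Klk6 and Gfap. A region is thus a set of spots with like transcripts, and its outline on the tissue was not used here.

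In the GENCODE M21 annotation of the GRCm38 build, 9 members lie on chromosome 3 and S100b lies on chromosome 10. S100a1 (chr3:90511034-90514392, minus strand) and S100a13 (chr3:90514435-90524581, plus strand) stand head to head. S100a16 (chr3:90537254-90543151), S100a4 (chr3:90603771-90606045), S100a6 (chr3:90612882-90624181) and S100a8 (chr3:90668978-90670035) follow on the plus strand, and S100a9 (chr3:90692632-90695721) on the minus strand. S100a11 (chr3:93520488-93526287) and S100a10 (chr3:93555080-93564643) lie farther along the chromosome, on the plus strand. S100a4 overlaps the gene model Gm42674 on its own strand, and S100b (chr10:76253853-76261159, plus strand) overlaps Dip2a on the other strand. Whether counting used strand is not given in the sources used here, so the separation of S100b and Dip2a reads in their overlap was not checked. S100a4 and Gm42674 share a strand, so strand alone cannot separate their reads.

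The sequences just before the genes with the clearest patterns are printed here so that the genes whose levels moved together can be compared. They come from the RefSeq promoter table (GRCm38.p6) and run 5′ to 3′ on the strand of the gene. Of each window, the longest run of bases outside all exons of the GENCODE annotation is printed. Windows of 250 bases were matched for 9 of the 10 members and were searched on both strands for 3 motifs. These were TGANTCA, bound by AP-1 factors, TTNNGNAA, a loose form of the C/EBP site, and the TATA box TATAAA. Matches in the printed bases stand in capitals, and none of them overlaps another.
S100a6, chr3:90612644-90612881: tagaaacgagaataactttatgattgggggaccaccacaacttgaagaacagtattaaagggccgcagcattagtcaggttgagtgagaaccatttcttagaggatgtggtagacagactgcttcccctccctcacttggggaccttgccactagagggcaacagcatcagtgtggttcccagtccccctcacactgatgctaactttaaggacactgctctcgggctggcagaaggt
S100a11, chr3:93520246-93520487: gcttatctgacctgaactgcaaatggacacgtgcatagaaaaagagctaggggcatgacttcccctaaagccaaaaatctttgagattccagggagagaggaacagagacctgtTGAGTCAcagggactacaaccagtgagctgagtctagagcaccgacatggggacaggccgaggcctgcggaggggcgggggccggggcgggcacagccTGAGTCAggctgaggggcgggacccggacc
S100a8, chr3:90668821-90668977: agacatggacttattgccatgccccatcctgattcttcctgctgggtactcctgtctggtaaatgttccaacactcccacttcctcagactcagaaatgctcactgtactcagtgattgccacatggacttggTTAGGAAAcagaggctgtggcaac
S100a9, chr3:90695722-90695971: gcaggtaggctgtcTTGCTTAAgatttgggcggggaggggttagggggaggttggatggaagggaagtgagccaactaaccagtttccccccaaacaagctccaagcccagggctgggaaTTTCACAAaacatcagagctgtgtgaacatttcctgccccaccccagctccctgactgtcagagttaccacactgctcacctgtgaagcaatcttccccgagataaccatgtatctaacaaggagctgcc
S100a1 and S100a13, between their first exons, chr3:90514393-90514434, on the strand of S100a13: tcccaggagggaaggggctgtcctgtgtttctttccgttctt
S100a11 held 2 AP-1 matches, a motif found in 6.75% of 32851 promoter windows of 250 bases, and 1 of the 2 windows of S100a16 held another. S100a8 held 1 and S100a9 held 2 C/EBP-like matches, and this short motif occurred in 36.85% of the windows. S100a6 held none of the 3 motifs. The 42 bases between S100a1 and S100a13 had a GC content of 54.8% and held none either. A TATA box was found in 12.37% of windows, among them those of S100a4 and S100a8, in S100a8 outside the printed bases. These matches describe letters only; no binding was measured.

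Levels by region are given first. They describe the spots and were not tested, because a region is defined by its transcripts, and levels are compared between regions for 1 gene at a time and not between genes. S100b, S100a16 and S100a13 were highest in white matter in all 6 sections. S100a8 and S100a9 were highest in the meninges in all 6 sections, S100a11 in the choroid plexus and ventricle in all 6, and S100a10 spread over the meninges, striatum and isocortex. The meninges region (1031 spots) is mixed: its astrocyte markers summed to 5606 CPM, against 3218 in whole sections. At the finer Leiden resolution of 1.2, 467 spots were named meninges and 566 layer 1 and glia limitans. S100a8 and S100a9 were then at 28.7 and 32.6 CPM in the meninges.

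**Figure D1:**
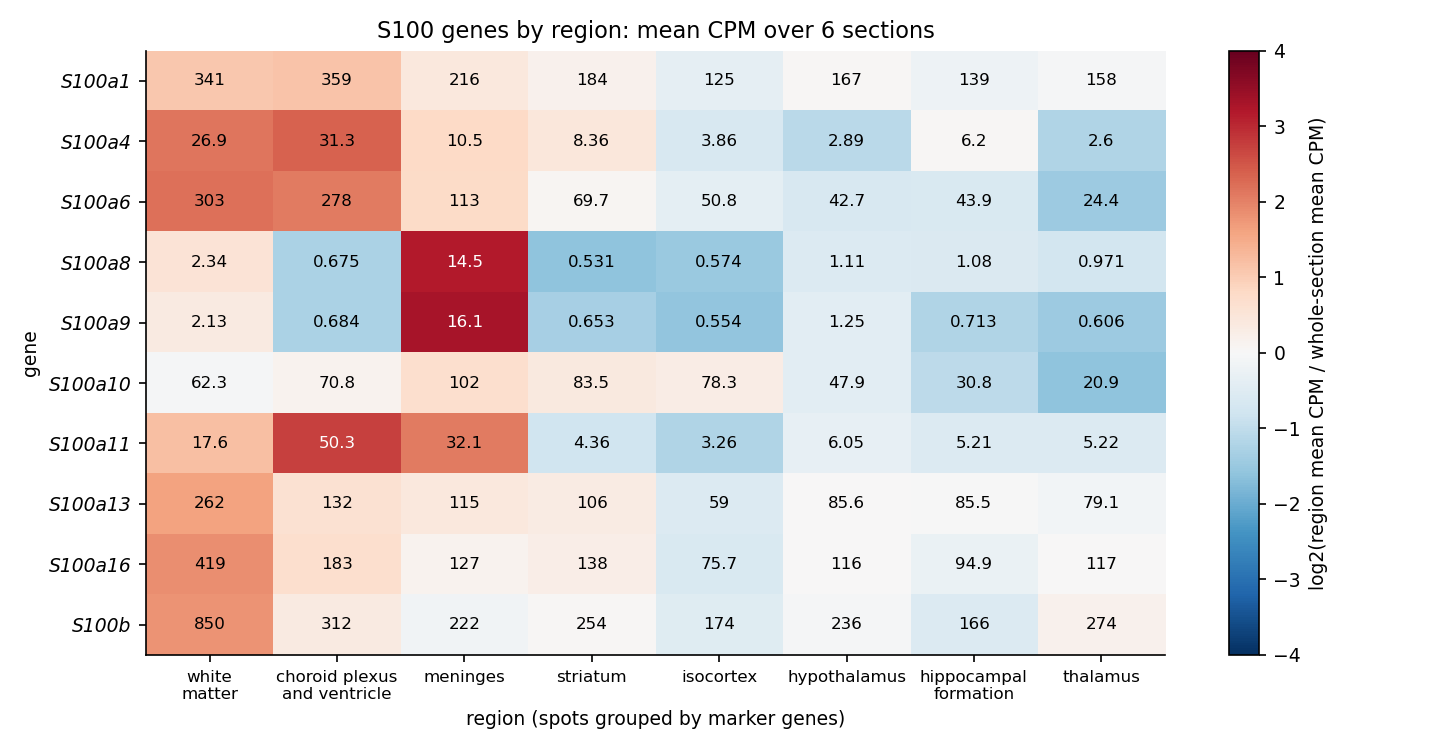
Mean CPM over the 6 sections (numbers in the cells) of each S100 gene (rows) in 8 marker-named regions (columns); the colour gives the log2 ratio of the region mean to the whole-section mean of the same gene. S100b (850.5), S100a16 (419) and S100a13 (262) peak in white matter, S100a8 (14.5) and S100a9 (16.1) in the meninges and S100a11 (50.3) in the choroid plexus and ventricle.

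S100b reached 850.5 CPM ± 123 (SD over 6 sections) in white matter, 2.73 times its level in the next region, the choroid plexus and ventricle (312 ± 83). The white matter values, from 674 to 1013 CPM, did not overlap those of any other region. S100a16, a broadly expressed member, was at 419 CPM ± 36 (SD, n = 6) in white matter and 183 ± 36 in the choroid plexus and ventricle. S100a13, which is needed for the release of the growth factor FGF1, was at 262 CPM ± 23 (SD, n = 6) against 132 ± 17 in the same 2 regions. White matter made up 9.52% of spots and 4.46% of all UMIs and held 15.6% of the S100b, 16.3% of the S100a16 and 13.7% of the S100a13 UMIs.

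S100a1, a regulator of calcium release through ryanodine receptors, was at 359 CPM ± 49 in the choroid plexus and ventricle and 341 ± 50 in white matter (SD, n = 6). The ranges overlapped, and each of these regions was the higher one in 3 sections. S100a6, known as calcyclin, had means of 303 CPM ± 150 in white matter and 278 ± 87 in the choroid plexus and ventricle (SD, n = 6), with overlapping ranges, and the wide spread in white matter followed age, as described below. S100a4, a partner of non-muscle myosin, had overlapping levels in the same 2 regions, with 31.3 CPM ± 20.9 in the choroid plexus and ventricle and 26.9 ± 18.4 in white matter (SD, n = 6). The isocortex, with 42.4% of all UMIs, held 32.6% of the S100a1 and 32.7% of the S100a6 UMIs.

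S100a11, which binds annexin A1, was at 50.3 CPM ± 10.4 in the choroid plexus and ventricle, 32.1 ± 8.7 in the meninges and 17.6 ± 8.5 in white matter (SD, n = 6). The first exceeded the second in all 6 sections although their ranges overlapped. S100a11 was lowest in the isocortex, at 3.26 CPM ± 0.46, and its level in the choroid plexus and ventricle was 15.4 times that.

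S100a10, also called p11, does not need calcium and joins annexin A2 in a complex that carries receptors and channels to the cell surface. It was at 102 CPM ± 16 in the meninges, 83.5 ± 18.1 in the striatum and 78.3 ± 8.4 in the isocortex (SD, n = 6), and neighbours in this order overlapped. By cluster it stood highest outside the named regions. In 97 spots whose leading genes included Slc5a7, Slc18a3 and Chat, genes of cholinergic neurons, its mean was 240.1 CPM ± 66.0, from 152 to 347 over the 6 sections. The next cluster, isocortex spots with Rspo1 and Rorb among their leading genes, was at 121 ± 10, from 109.0 to 132, so the 2 ranges did not overlap. S100a11 was also high in the cholinergic spots, at 47.1 CPM ± 18.3 (SD, n = 6). That cluster had as few as 4 spots in young 2 and at most 27 in old 1.

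Across the 21 clusters S100a1, S100a13, S100a16 and S100b followed each other closely. The Pearson correlation of log2(CPM + 1) was 0.96 between S100a13 and S100a16, 0.95 between S100a16 and S100b and 0.91 between the head-to-head neighbours S100a1 and S100a13. S100a6 correlated less with S100b (0.54), and S100a10 with none of these 5 genes above 0.34. The other members, under a mean of 10 CPM, were left out of this measure. These values share libraries and clusters and are a description only. By the same measure the genes most like S100a16 were Tsc22d4 (0.99), Zcchc24 and Lap3. Those most like S100b were Qk, an RNA-binding regulator of myelin genes (0.96), Tsc22d4 and Tmem229a, and those most like S100a13 were Sall1 (0.97), the serine synthesis enzyme Phgdh and the complement gene C1qc. S100a1 came closest to Arpc1b (0.96), Acadl and Lyz2, S100a6 to Cnppd1 (0.87), Cmtm6 and Ppib, and S100a10 to Rps18 (0.76), Galnt2 and Rpl12.

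Age was compared first in whole sections, where the question is whether the family changed over the life span that the study sampled. Sums of UMIs per section were fitted with edgeR's quasi-likelihood test, and a gene was called at an adjusted p under 0.05. In old against young sections 0 of 10 members were called, as were 0.164% of 17673 genes. In middle against young, where 0.0679% of genes were called, and in old against middle, where 0.0% were, the count was again 0 of 10. At an unadjusted p under 0.05, 4 members (S100a4, S100a6, S100a13 and S100a16) and 2246 genes passed in old against young, 2 and 1382 in middle against young, and 3 and 361 in old against middle. DESeq2, run as an alternative, called 1, 0 and 0 members. Counts of 0 do not show that levels were equal.

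S100a6 was at 51.3 and 50.6 CPM in young, 62.4 and 64.9 in middle and 74.4 and 94.1 in old sections. The 3 ages did not overlap and stood in order of age. The old against young log2 fold change was 0.67 (SE 0.11, adjusted p = 0.115), short of the threshold. S100a6 was the member that DESeq2 called (0.68, adjusted p = 1.69e-06). S100a4 was at 4.79 and 4.02, 6.15 and 6.02, and 5.58 and 9.73 CPM in young, middle and old, with 1 high old section, and its log2 fold change was 0.74 (SE 0.27, adjusted p = 0.350). S100a11 was at 6.90 and 6.16, 6.84 and 7.79, and 7.11 and 10.7 CPM (0.39, SE 0.19, adjusted p = 0.453).

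S100b, S100a16 and S100a13 shifted less. S100b was at 229.5 and 216 CPM in young, 257 and 250.03 in middle and 242 and 269 in old sections (log2 fold change old against young 0.14, SE 0.08, adjusted p = 0.465). S100a16 was at 105 and 103, 114 and 118, and 116 and 133 CPM (0.21, SE 0.07, adjusted p = 0.306). S100a13 was at 76.4 and 79.1, 81.6 and 91.0, and 85.7 and 99.5 CPM (0.20, SE 0.08, adjusted p = 0.357). In all 3 the old sections lay above the young ones, and none passed the test. For S100a16 and S100a13, as for S100a11, the highest values were those of the 2 sections of slide 2, which was not so for S100b. Both young sections lay on slide 1, so slide and age were partly mixed.

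S100a1 was at 148 and 149 CPM in young, 151 and 183 in middle and 152 and 187 in old sections (0.14, SE 0.11, adjusted p = 0.635); the higher values were those of the 2 sections of slide 2. S100a10 was at 67.9 and 63.9, 56.0 and 66.6, and 56.2 and 72.7 CPM, with wholly overlapping ages (-0.08, SE 0.14, adjusted p = 0.845). S100a8 was at 2.18 and 1.42, 0.892 and 1.08, and 2.45 and 1.64 CPM (0.13, SE 0.27, adjusted p = 0.880) and S100a9 at 2.13 and 1.34, 0.996 and 1.196, and 2.75 and 1.49 CPM (0.24, SE 0.34, adjusted p = 0.808). Both calprotectin genes were lowest in the middle sections. Over the 10 members the median log2 fold change of old against young was 0.21 and 9 were above 0, beside a median of -0.0023 and 49.3% above 0 over all tested genes.

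White matter held the clearest age pattern of the family. S100a6 was 2.55-fold higher in old than in young white matter, and most of that difference lay between the middle and the old sections. S100a11 and S100a10 were also called higher in old than in young, while S100a1, S100a13, S100a16 and S100b were not called. In white matter 8 of 10 members passed the filter on low counts, of which 3 were called higher in old against young and 0 lower, where 2.18% of 12551 genes were called. In old against middle 1 of 8 was called (0.47% of genes), and in middle against young 0 of 8 (3.37% of genes), where 2 members (S100a6 and S100b) and 1918 of all 12551 genes passed at an unadjusted p under 0.05 and DESeq2 called 0 members. In old against young DESeq2 called S100a6 and S100a4, and not S100a11 or S100a10. Each pair of these comparisons shares the sections of 1 age.

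**Figure D2:**
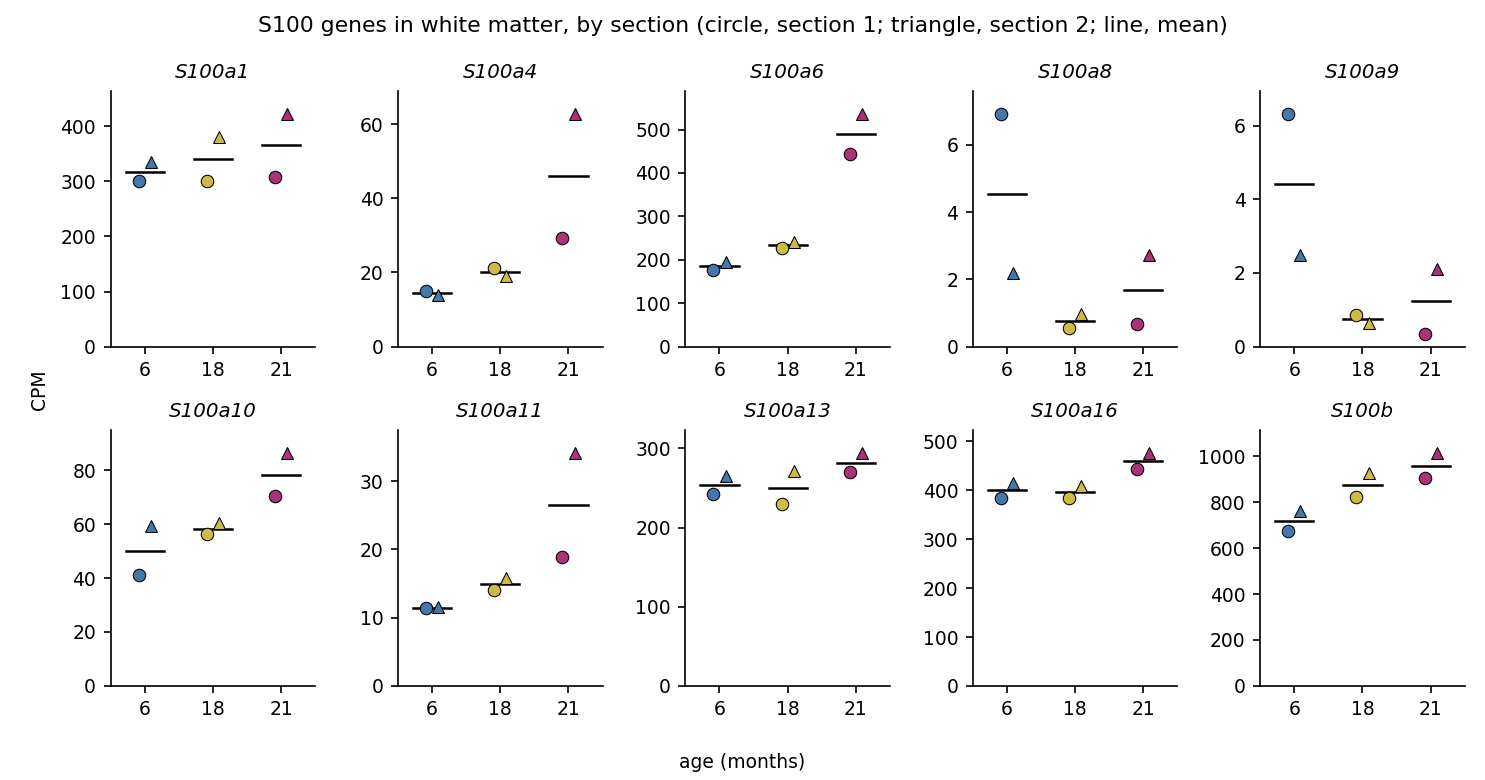
CPM of each S100 gene in the white matter spots of each section (vertical axis, from 0) by age in months (horizontal axis); circles are section 1 and triangles section 2 of an age, and the line is their mean. S100a6 is at 444 and 536 CPM in the old sections and at most 240.1 in the others.

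S100a6 was at 175 and 195 CPM in young, 227 and 240.1 in middle and 444 and 536 in old white matter. Every old section exceeded every middle one, and every middle one every young one. The log2 fold change was 1.35 for old against young (SE 0.10, adjusted p = 6.89e-09), 1.05 for old against middle (SE 0.10, adjusted p = 9.73e-07) and 0.30 for middle against young (SE 0.10, adjusted p = 0.135). Both calls held in each of 17 alternative settings, slide as a block among them (1.26, adjusted p = 1.33e-07, for old against young).

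The rise was spread over many spots. S100a6 was found in 63.6% and 71.9% of young, 82.9% and 81.3% of middle and 86.9% and 89.5% of old white matter spots. With every spot thinned to 5000 UMIs, which left out 5 to 27 spots a section, the shares were 48.1% and 54.0%, 54.1% and 59.0%, and 74.6% and 79.4%. The median spot held 1.16 and 1.45 S100a6 UMIs per 10000 in young, 1.67 and 1.66 in middle and 3.38 and 4.31 in old sections. The 10 richest spots held between 14.1% and 27.8% of the S100a6 UMIs of a section's white matter, with the lowest shares in the old sections.

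S100a4 was at 15.1 and 14.01 CPM in young, 21.2 and 19.1 in middle and 29.2 and 62.8 in old white matter. The ages did not overlap, but old 2 stood far above old 1. Its log2 fold change was 1.61 (SE 0.39, adjusted p = 0.145) and was not called by edgeR, whereas DESeq2 called it. S100a11 was at 11.4 and 11.5, 14.1 and 15.9, and 18.8 and 34.1 CPM, again highest in old 2, and rose by 1.16 on the log2 scale (SE 0.25, adjusted p = 0.00925). Without old 2 the S100a11 change was 0.66 with an adjusted p of 0.479, with slide as a block it was 0.84 with an adjusted p of 0.161, and DESeq2 gave an adjusted p of 0.138.

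S100a10 was at 41.3 and 59.1 CPM in young, 56.4 and 60.3 in middle and 70.3 and 86.3 in old white matter. The old sections lay above all others, whereas young and middle overlapped. The log2 fold change of 0.59 (SE 0.14, adjusted p = 0.0269) passed the threshold, but it was called in only 7 of 17 alternatives. Among those that ended the call were DESeq2 (adjusted p = 0.341), slide as a block (0.49, adjusted p = 0.212) and leaving out old 2 (adjusted p = 0.419), young 1 (0.313), middle 1 (0.0836) or middle 2 (0.0863).

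S100b was at 674 and 760.5 CPM in young, 823 and 929 in middle and 903 and 1013 in old white matter. Both older groups lay above the young sections and overlapped each other. The old against young log2 fold change of 0.36 (SE 0.10, adjusted p = 0.0578) was just outside the threshold and was called in 3 of 17 alternatives. S100a16 was at 385 and 416, 384 and 409, and 444 and 476 CPM (0.14, SE 0.09, adjusted p = 0.591). S100a13 was at 243 and 266, 229.9 and 271, and 270.0 and 294 CPM (0.09, SE 0.10, adjusted p = 0.779), and S100a1 at 301 and 335, 301 and 381, and 308 and 423 CPM (0.14, SE 0.14, adjusted p = 0.753). Young and middle overlapped in these 3 genes, and the old sections lay above both in S100a16 only.

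S100a8 and S100a9 had too few UMIs in white matter to be tested, 46 and 42 over all sections. S100a8 was at 6.93 and 2.18, 0.564 and 0.972, and 0.672 and 2.72 CPM and S100a9 at 6.32 and 2.49, 0.846 and 0.648, and 0.336 and 2.11 CPM in young, middle and old. The highest values were those of young 1, where 1 spot held 19 UMIs of the pair.

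Markers of other cells moved in the same spots. The summed level of 10 microglia markers in white matter was 1001 and 1197 CPM in young, 1479 and 1698 in middle and 2165 and 2641 in old sections, and 8 of the 10 were called higher in old against young. Of 10 astrocyte markers 2 were called higher (Gfap and Aldh1l1), with sums between 3958 and 4304 CPM in the young and middle and 4637 and 5275 in the old sections. Of 10 oligodendrocyte markers 1 was called lower (Mal), and their sum was 51734 and 55961 CPM in young, 46956 and 40975 in middle and 49028 and 47284 in old sections, so that both older groups lay below the young one. T cell and macrophage markers summed to 30.2 CPM in old 2 and to between 10.6 and 13.8 in the other sections, and haemoglobin genes to 82.7 CPM in old 2 and between 5.1 and 17.4 elsewhere. None of the markers in the microglia, astrocyte, oligodendrocyte or T cell and macrophage lists was at 0 in white matter. Their part in the S100 changes was not tested, and more cells of a type and more RNA per cell cannot be told apart in such sums.

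Whether the age change in white matter exceeded that in the rest of the same sections was tested as an interaction of age and region, blocking on section. Of the 10 members, 3 changed more in white matter than in all other spots (S100a6, S100a4 and S100a10) and 0 changed less, where 1.34% of 16901 genes were called. The other spots include an unnamed cluster of 208 spots with 16 white matter markers among its 50 leading genes.

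**Figure D3:**
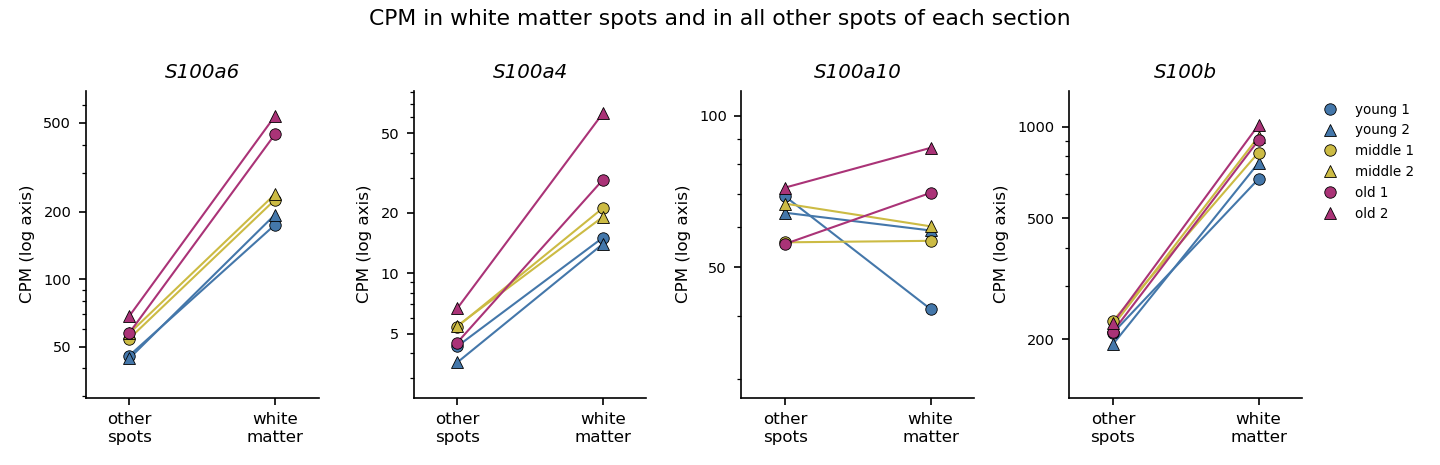
CPM (log axis) of S100a6, S100a4, S100a10 and S100b in white matter spots and in all other spots; each line joins the 2 values of 1 section, coloured by age. S100a10 is higher in white matter than outside it in both old sections and lower in both young sections.

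S100a6 outside white matter was at 45.7 and 44.4 CPM in young, 54.4 and 57.4 in middle and 57.7 and 68.6 in old sections. It therefore stood higher with age there too, by less. The old against young change was 0.91 larger in white matter on the log2 scale (SE 0.09, adjusted p = 1.95e-17). This difference was called in all 10 alternatives run for it, none of which had a slide term. S100a10 outside white matter was at 69.1 and 64.1, 56.0 and 66.9, and 55.6 and 72.0 CPM. Its change was 0.70 larger in white matter (SE 0.14, adjusted p = 0.000366), and this call was lost without young 1 (adjusted p = 0.29) and at a finer clustering (0.209). S100a4 outside white matter was at 4.32 and 3.59, 5.42 and 5.46, and 4.51 and 6.68 CPM. Its change was 1.12 larger inside (SE 0.24, adjusted p = 0.0013), which was lost without old 2 (adjusted p = 0.36). S100b (0.28 larger, adjusted p = 0.0558), S100a11 (0.85 larger, adjusted p = 0.0555) and, in the other direction, S100a9 (-2.16, adjusted p = 0.0618) lay just outside the threshold. S100a8 was also negative (-1.63, adjusted p = 0.208), and both calprotectin genes had too few UMIs in white matter to be tested there alone.

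In the other regions few members were called. S100a6 was called higher in old striatum, and S100a8 and S100a9 in old meninges. No member was called in any age comparison of the isocortex (0.19% of genes called in old against young, 0.197% in middle against young and 0.0% in old against middle), hypothalamus (0.0624%, 0.0554% and 0.0%), thalamus (0.0651%, 0.0362% and 0.0%) or choroid plexus and ventricle (0.034%, 0.051% and 0.0%). The same held for the hippocampal formation (0.0% of genes called in each comparison), where young 1 had only 63 spots. DESeq2 called 0 members in these comparisons too, and at an unadjusted p under 0.05 the old against young count was 6 of 10 members in the isocortex (1684 of 15773 genes), 0 of 10 in the hypothalamus (1041 of 14431), 2 of 8 in the thalamus (676 of 13823), 0 of 8 in the choroid plexus and ventricle (696 of 11771) and 1 of 8 in the hippocampal formation (525 of 13381).

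**Figure D4:**
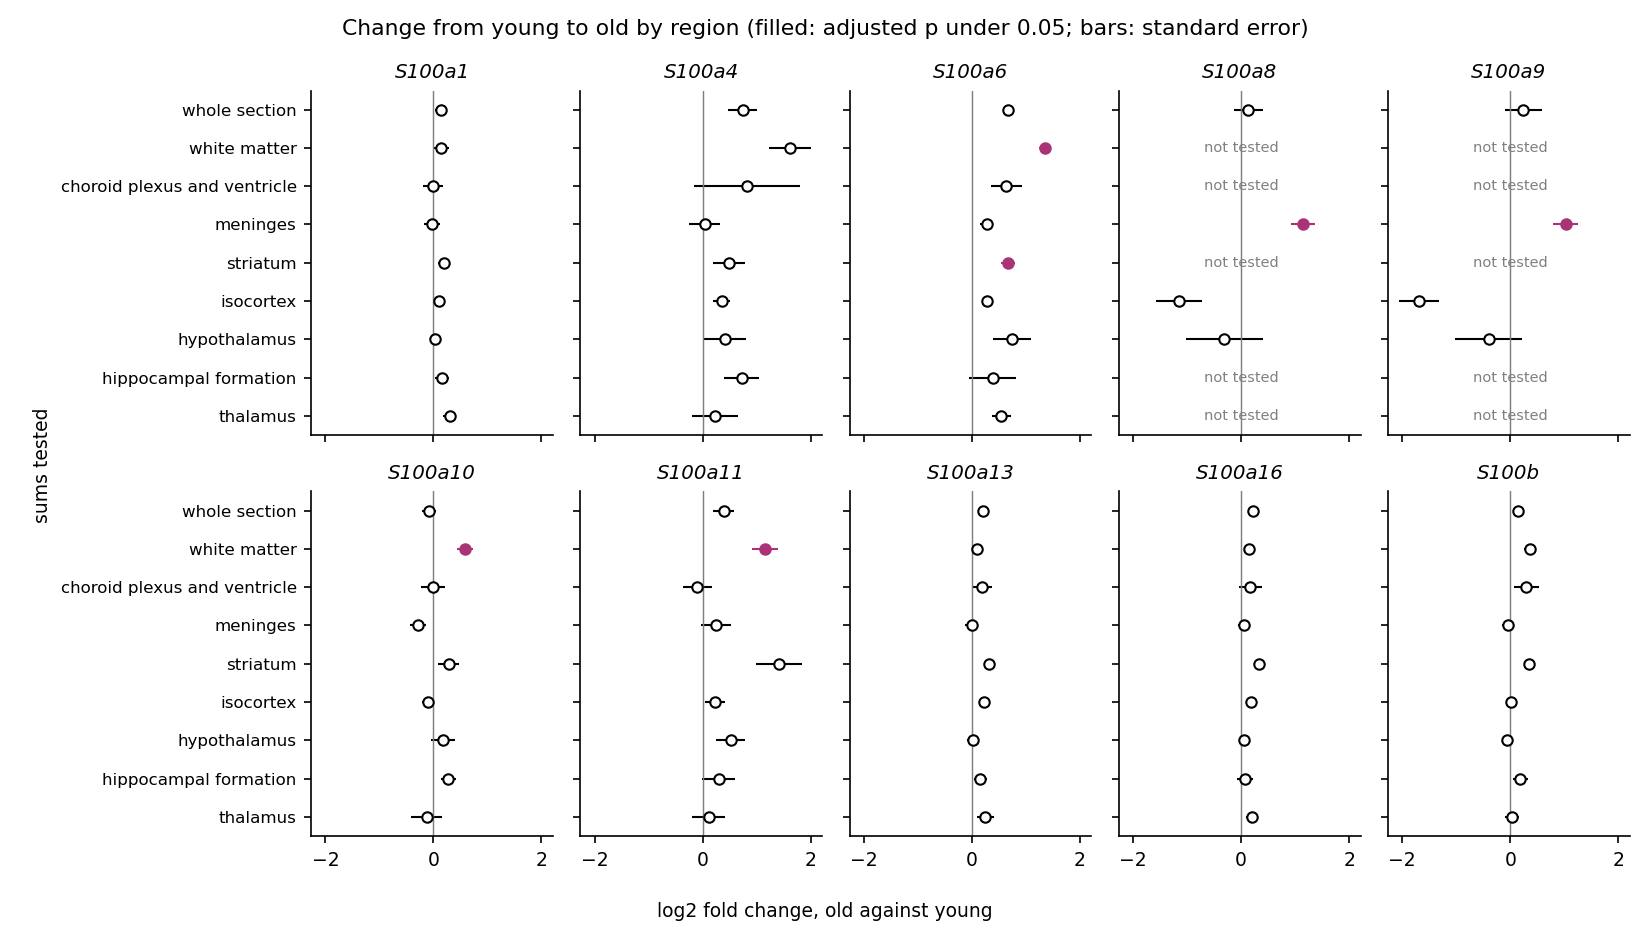
Log2 fold change of old against young (horizontal axis, with its standard error) for each S100 gene in whole sections and in 8 regions; filled points have an adjusted p under 0.05. S100a6 lies above 0 in all 9 rows and is largest in white matter (1.35), and S100a8 and S100a9 are filled in the meninges only.

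S100a6 in the striatum was at 45.1 and 62.1 CPM in young, 69.2 and 68.4 in middle and 80.6 and 92.8 in old sections. The ages did not overlap. The log2 fold change of 0.67 (SE 0.13, adjusted p = 0.0395; 1 of 8 tested members called, 0.152% of genes) was called in only 6 of 16 alternatives. In middle against young and old against middle striatum 0 of 8 members were called (0.0719% and 0.0% of genes). With slide as a block the old against young call did not hold (adjusted p = 0.433), nor did it without old 2 (0.831), young 1 (0.181), old 1 (0.117), middle 2 (0.107) or middle 1 (0.0976). At an unadjusted p under 0.05, 5 of 8 members passed in old against young striatum, with 1170 of 12523 genes. They were S100a6, S100a11, S100a13, S100a16 and S100b. S100b was at 216 and 220 CPM in young, 256 and 246 in middle and 302 and 282 in old striatum. S100a16 and S100a13 also stood in order of age there without overlap. S100a6 had a positive change in every named region: 0.74 in the hypothalamus, 0.64 in the choroid plexus and ventricle, 0.54 in the thalamus, 0.38 in the hippocampal formation, 0.28 in the isocortex and 0.27 in the meninges. None of these 6 was called. In the choroid plexus and ventricle the sections of 1 age differed widely, with 221 and 185, 386 and 245, and 239.8 and 388 CPM in young, middle and old.

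S100a4 in the choroid plexus and ventricle, its region of highest level, was at 22.4 and 15.0, 62.3 and 19.5, and 15.4 and 53.3 CPM. Middle 1 and old 2 were high and their partners of the same age low, so the sections of an age differed more than the ages did (log2 fold change old against young 0.82, adjusted p = 0.946). S100a11 there was at 52.3 and 49.7, 68.2 and 37.3, and 43.3 and 51.1 CPM (-0.10, adjusted p = 0.974), and S100a1 at 392 and 294, 375 and 414, and 302 and 375 CPM (-0.01, adjusted p = 0.998). No age stood apart in either. The make-up of these spots differed between sections. Their oligodendrocyte markers summed to 23617 CPM in middle 1, 14892 in old 2 and between 10648 and 16154 in the other sections. Choroid plexus markers summed to 104895 CPM in middle 1 and between 128628 and 157523 elsewhere. The part of these cells in the S100 levels was not tested. S100a10 in the meninges was at 123 and 103, 79.5 and 115, and 90.9 and 102 CPM (-0.28, adjusted p = 0.923).

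The calprotectin genes stood out in the meninges. S100a8 was 2.22-fold and S100a9 2.03-fold higher in old than in young meninges, and both were also called higher in old against middle. Of 10 members 2 were called higher in old against young (0.248% of 12907 genes called) and 2 in old against middle (0.0232%), and 0 in middle against young (0.364%). A handful of spots held most of these transcripts, and neither call held when the richest spot of each section was left out.

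S100a8 in the meninges was at 12.9 and 7.66 CPM in young, 10.4 and 8.15 in middle and 25.9 and 21.8 in old sections. S100a9 was at 15.5 and 8.80, 12.1 and 9.23, and 29.9 and 21.4 CPM. In both genes the old sections lay above all others, and young and middle overlapped. The log2 fold change of old against young was 1.15 for S100a8 (SE 0.23, adjusted p = 0.00512) and 1.02 for S100a9 (SE 0.23, adjusted p = 0.042). Against middle it was 1.37 for S100a8 (SE 0.24, adjusted p = 0.00656) and 1.28 for S100a9 (SE 0.24, adjusted p = 0.0433).

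The 5 richest meningeal spots held 54.5% and 72.4% of the S100a8 and S100a9 UMIs in young, 28.8% and 62.5% in middle and 68.9% and 77.3% in old sections. One spot alone held 66 UMIs in old 1 and 59 in old 2, against 27, 18, 9 and 15 in young 1, young 2, middle 1 and middle 2. Without that spot in each section the S100a8 change was 0.71 (adjusted p = 0.888) for old against young and 0.61 (adjusted p = 1.0) for old against middle, and the S100a9 changes were 0.80 (adjusted p = 0.628) and 1.06 (adjusted p = 1.0). All 4 calls were also lost with DESeq2, after thinning to the smallest total and without old 1. Old against young, both calls were lost without young 2 (adjusted p = 0.0813 for S100a8 and 0.204 for S100a9), and that of S100a9 also without middle 1 (0.0989) or middle 2 (0.0916). Old against middle, both were lost without middle 2 (0.38 and 0.762), and that of S100a9 without middle 1 (0.107).

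In the same meningeal spots 15 neutrophil markers summed to 19.2 and 21.3 CPM in young, 14.3 and 14.7 in middle and 21.9 and 25.4 in old sections, with Stfa2l1 at 0. Over all sections Csf3r (1369) and Mmp9 (594) held the largest parts of the 2748 UMIs of these markers. Of their UMIs 0.731% and 2.02% lay in the spots rich in S100a8 and S100a9 described below. Haemoglobin genes summed to 181 and 329, 411 and 88.5, and 484 and 420 CPM, and fibroblast markers to between 429 and 646 CPM with overlapping ages. The part of these cells in the change was not tested.

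The age change of S100a8 was 1.73 larger in the meninges than in all other spots of the same sections (SE 0.37, adjusted p = 0.00194), and that of S100a9 was 1.45 larger (SE 0.36, adjusted p = 0.0312), while that of S100a6 was 0.44 smaller (-0.44, SE 0.11, adjusted p = 0.0213). These are 3 of 10 members, where 0.288% of 17025 genes were called. The other spots include white matter, which held 20.6% of the S100a6 UMIs and where S100a6 changed by 1.35 on the log2 scale. At Leiden resolution 1.2 the S100a6 call (adjusted p = 0.842) and the S100a9 call (0.0687) were lost. Outside the meninges S100a8 was at 1.56 and 1.12, 0.426 and 0.713, and 1.19 and 0.688 CPM, and young and old overlapped. Leaving out old 2 ended all 3 calls (adjusted p = 0.16 for S100a8, 0.615 for S100a9 and 0.917 for S100a6), as did leaving out young 1 (0.0678, 0.231 and 0.858). The S100a9 call was also lost without old 1 (0.0722) or young 2 (0.156). In the isocortex the log2 fold change of old against young was -1.15 for S100a8 (adjusted p = 0.353) and -1.69 for S100a9 (adjusted p = 0.112), not called. For the choroid plexus and ventricle none of the 8 members with enough UMIs there was called for a different change from the other spots (0.0627% of genes called), with 0 members and 1000 genes at an unadjusted p under 0.05. S100a8 and S100a9, with 7 and 6 UMIs in that region, could not be judged. DESeq2 was not run for these differences. Those of S100a8 and S100a9 in the meninges were also not fitted without the richest spot of each section. Leaving that spot out had ended their calls within the meninges.

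Spot by spot, S100a8 and S100a9 occurred together. Of 16741 spots, 362 held S100a8, 354 held S100a9 and 117 held both. S100a9 was found in 32.3% of the spots with S100a8 and in 1.45% of the other spots. In each section this contrast was seen, from 26.7% against 1.61% in old 1 to 38.5% against 2.1% in young 1. A total of 41 spots with 5 or more UMIs of the pair held 46.8% of its 1411 UMIs, and 46.3% of these spots were meningeal and 0.0% choroid plexus.

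**Figure D5:**
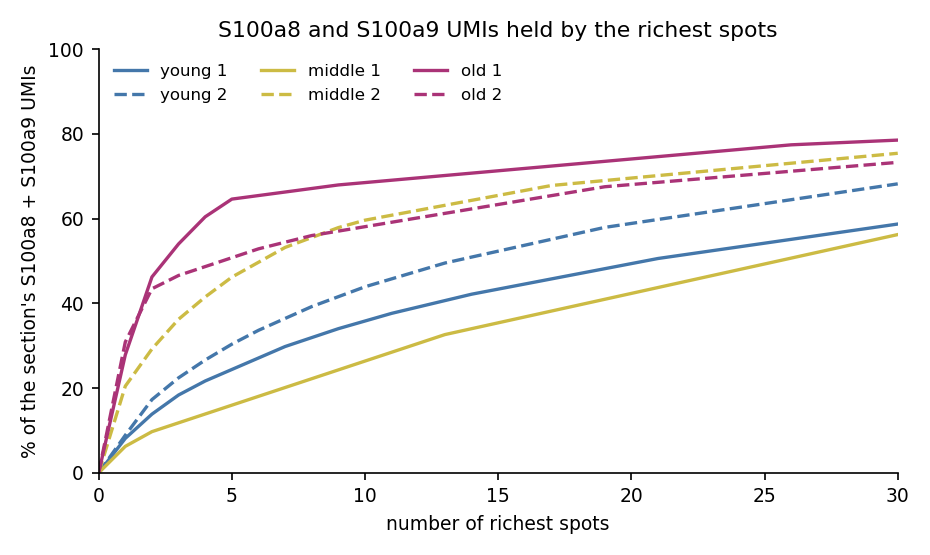
Cumulative share of a section's S100a8 and S100a9 UMIs (vertical axis, %) in its richest spots, taken in order from 1 to 30 (horizontal axis), 1 line per section. The richest spot holds 27.9% in old 1 and 30.9% in old 2, and between 6.25% and 20.5% in the other sections.

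The richest spot of all lay in old 1 and held 45 S100a8 and 55 S100a9 UMIs, 27.9% of the section's total. It belonged to an unnamed cluster with Gpr151, Pou4f1 and Chrna3 among its leading genes, and it also held 82 UMIs of neutrophil marker genes. Of the 15 neutrophil markers together, 245 of 2748 UMIs (8.92%) lay in the same 41 spots, which held 0.191% of all UMIs, and 82 of the 245 were in that single spot of old 1. The share differed between markers. It was highest among the more abundant ones for the granule genes Ngp (61 of 95 UMIs), Camp (63 of 116) and Ltf (33 of 50), and lower for Lcn2 (20 of 235), Mmp9 (12 of 594, 2.02%) and Csf3r (10 of 1369, 0.731%). Of Mpo, which marks early stages in the marrow, 0 of 48 UMIs were there. Haemoglobin genes had 8.62% of their UMIs in these spots. The number of rich spots was 14 and 10 in young, 2 and 7 in middle and 5 and 3 in old sections, so the old sections had fewer rich spots than the young, with more UMIs in the richest one. The limit of 5 UMIs was not adjusted for depth. The median spot held 30093 and 26305.5 UMIs in young and 21766 and 20370 in old sections.

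Genes that work with S100 proteins were taken from a fixed list of 17 partners and receptors, together with 16 other EF-hand genes. In whole sections 0 of 17 and 0 of 16 were called in any of the 3 age comparisons. In white matter, old against young, 1 of 13 tested partners was called higher (Anxa2) and 1 lower (Cacybp), and of 16 EF-hand genes 0 were called higher and 1 lower (Efhd1), where 2.18% of all genes were called.

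Anxa2, the annexin that S100a10 joins, was at 20.5 and 12.1 CPM in young, 16.4 and 16.8 in middle and 27.9 and 32.9 in old white matter. The old sections lay above all others, and the log2 fold change was 0.84 (SE 0.21, adjusted p = 0.0314). Cacybp, which encodes the protein that binds calcyclin (S100a6), went the other way. It was at 110.2 and 119 CPM in young, 89.97 and 94.9 in middle and 85.1 and 78.8 in old white matter and fell by 0.55 on the log2 scale (SE 0.11, adjusted p = 0.00372). Efhd1, a mitochondrial EF-hand protein, was at 212 and 214 CPM in young, 168 and 158 in middle and 149 and 159 in old white matter and fell by 0.52 (SE 0.10, adjusted p = 0.0019).

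In middle against young white matter, where 3.37% of all genes were called, 0 of 13 partners and 4 of 16 EF-hand genes were. The neuronal sensors Ncs1 (0.77, adjusted p = 0.00494), Hpca (0.55, adjusted p = 0.0329) and Vsnl1 (0.51, adjusted p = 0.0164) were called higher and Efhd1 (-0.42, adjusted p = 0.0138) lower. In old against middle, where 0.47% of all genes were called, Hpca was called lower (-0.65, adjusted p = 0.0424). Ahnak, a large scaffold that binds the S100a10 and annexin A2 complex, was at 40.4 and 33.3, 29.6 and 34.3, and 33.3 and 38.6 CPM in white matter with no order by age (-0.09, adjusted p = 0.878). The receptor gene Ager was between 0.478 and 0.656 CPM in whole sections (-0.16, adjusted p = 0.831) and was too low to be tested in white matter.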

How the data were processed

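Visium libraries of 6 coronal mouse brain sections were deposited as UMI count matrices over all genes, with barcode and feature tables, 1 set per section. Per the file headers, Space Ranger 1.3.1 made the deposited counts. The submitters' processing notes list Space Ranger 3.1 and the build mm10. The deposited barcode and feature tables hold names only. Use of strand in counting is not given in the sources used here.

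Spots with at least 500 UMIs were kept, which left out 1 spot in middle 2 and 1 in old 2. Counts were scaled to 10000 per spot and log-transformed with scanpy 1.11.5. S100, mitochondrial, haemoglobin and partner genes were left out of the 2000 variable genes, and values were scaled within each section (30 components, 20 neighbours, Leiden resolution 0.8). A cluster was named only with 3 or more fixed markers among its 50 leading genes, 1 of them among the first 10, and more than those of the next region by a factor of 2. No doublet caller was run, since a spot can hold several cells.

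UMI counts were summed per section or per section and region, filtered with filterByExpr, scaled by TMM and fitted with edgeR 4.0.16 (robust quasi-likelihood test, 2-sided, R 4.3.3) over all 6 sections, with 3 residual degrees of freedom and Benjamini-Hochberg adjustment over all genes tested. CPM values carry no TMM factor. Differences of age change between a region and all other spots were interaction terms with section as a block. The scripts were tested on simulated data, in 5 runs each for whole sections, white matter and meninges. When 200 genes carried a true log2 change of 1, 80.9%, 67.7% and 73.4% of them were recovered, in that order. Of the calls, 12.3%, 9.6% and 9.4% were false, more than the adjusted p threshold of 0.05 aims at. When no gene was changed, a mean of 3.6, 4.8 and 4 genes was still called. Old against middle meninges had 3 genes called in the measured data, S100a8 and S100a9 among them. DESeq2 1.42.0, other clusterings, filters, thinning, a slide or replicate block and leaving out each section were alternatives. Leaving out 1 spot per section, or the cluster that rests on the fewest markers from the hypothalamus, was chosen after seeing the data.

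All 10 members were described in whole sections and white matter, and in another region where called or where that region ranked first or second. A few further regional values are given beside these. At most 5 called partner genes per comparison were named, with Anxa2, Ahnak and Ager always. So were 3 genes of like pattern per member with a mean of at least 10 CPM. The members and lists were chosen with earlier results of these data known. The labels do not tie a section to an animal beyond stating 2 males per age, so p-values measure the spread between these sections. Regional sums ranged from 1268476 to 36073322 UMIs, and intervals for counting error alone are not given.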

Additional observations from a re-analysis of the deposited data

Results flagged for a closer look

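Of the differences in age change between a region and the rest of each section, 6 among the members passed the test of that difference (edgeR's quasi-likelihood test, adjusted p under 0.05), old against young. In white matter the change was larger by 0.91 on the log2 scale for S100a6, by 1.12 for S100a4 and by 0.70 for S100a10. In the meninges it was larger by 1.73 for S100a8 and by 1.45 for S100a9. For S100a6 the difference was -0.44, against other spots that include white matter. The white matter difference of S100a6 was called in all 10 alternatives run for it, none of which had a slide term. That of S100a4 was lost without old 2 (adjusted p = 0.36), that of S100a10 without young 1 (0.29), and each of the 3 in the meninges without old 2 and without young 1. The meningeal difference of S100a9 was called in 4 of 9 alternatives and, like that of S100a6, was lost at Leiden resolution 1.2. Neither it nor that of S100a8 was fitted without the richest spot of each section, whose removal ended their calls within the meninges.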

How the results depend on the processing

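Of the values for named genes, 368 kept their direction and side of the threshold under the alternatives, 65 lost it, 10 gained it and 11 reversed; of the counts and levels, 429 stayed within their limits and 62 moved. The cause of each change below was not tested unless its construction shows it. Counts of members called, old against young: in white matter (3) the count was 1 at Leiden resolution 1.2, 1 with only the groups compared and 5 with no filter; in the meninges (2) it was 0 with DESeq2, thinned or without the richest spot, and 1 with only the groups compared or without spots under 5000 UMIs; in the striatum (1) it was 0 with DESeq2, only the groups compared, slide as a block or thinned; without a filter it was 2 in the isocortex and 2 in the thalamus (0 in both); in whole sections (0) DESeq2 called 1. Old against middle: in white matter (1) it was 3 with no filter and 2 with slide as a block; in the meninges (2) 0 with DESeq2, thinned or without the richest spot, and 1 without spots under 5000 UMIs. Middle against young (0 in each): 1 in the isocortex at Leiden resolution 1.2 and 3 with no filter, and with no filter 1 in the striatum, 1 in the thalamus and 2 in white matter. For meninges against other spots (3) it was 1 at Leiden resolution 1.2. Leaving out 1 section gave 1 to 4 (old against young), 1 to 3 (old against middle) and 0 to 2 (middle against young) in white matter, 0 to 2 in the meninges for both comparisons with old, 0 to 1 in the striatum (old and middle against young), 0 to 1 in whole sections and isocortex and 0 to 2 in the hippocampal formation (old against young), 0 to 1 in the choroid plexus and ventricle (middle against young), 2 to 5 for white matter against other spots and 0 to 3 for meninges against other spots. Old against young, S100a1 in white matter (0.144) was -0.0609 with slide as a block and -0.0984 to 0.346 leaving out 1 section; in whole sections S100a8 (0.133) was -0.0381 with equal spots per region, -0.247 without the richest spot and -0.186 to 0.508 leaving out 1 section, S100a9 (0.242) -0.109 without the richest spot and -0.269 to 0.646, S100a1 -0.0172 to 0.289 and S100a10 -0.285 to 0.0935. Levels moved at Leiden resolution 0.5 in the choroid plexus and ventricle (S100a1 283 CPM, S100a11 34.7) and at 1.2 in the meninges (S100a8 28.7, S100a9 32.6, S100a10 147). Sections with the same replicate number correlated in their deviations from group means by 0.0193 (young, middle), 0.135 (young, old) and 0.241 (middle, old). The numbers were not taken as pairs in the main fit. Middle 1 and old 1 lay on slide 1 and middle 2 and old 2 on slide 2, so number and slide cannot be told apart there. With the replicate block S100a6 in white matter kept its call (1.35, adjusted p = 5.93e-09). The hypothalamus counts were then 1 for old and for middle against young (0 without the block), and the striatum count was 0. Depth limits S100a8 and S100a9 outside the meninges, where each other named region holds 7 to 111 UMIs of S100a8 and 6 to 108 of S100a9 over all sections.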

Other observations

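A further 7 S100 genes had UMIs in these sections and were too low for a comparison. S100a3 had 397 UMIs over all sections, S100a7a 131, S100a2 48, S100a14 22, S100a5 13, S100g 11 and S100z 5. The summed level of the further S100 genes in white matter was 3.31 and 3.11 CPM in young, 2.82 and 3.89 in middle and 5.04 and 4.83 in old sections, with S100g at 0.

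By cluster, S100b ranked next after white matter at 548 CPM ± 67 (SD, n = 6) in the 208 unnamed spots with Ccn2, Cplx3 and Enpp6 among their leading genes. It was followed by 454 ± 33 in 806 spots with Pmch and Spp1 among their leading genes and 427 ± 42 in 309 unnamed spots with Six3, Spp1 and Pvalb. The 806 spots were named hypothalamus on only 3 markers among 50 leading genes, so that name is weak. The naming of an isocortex cluster of 981 spots also rests on 3.

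The richest S100a8 and S100a9 spot of young 2 lay among hippocampal spots and held 19 UMIs of the pair and 0 UMIs of neutrophil markers, and that of middle 2 lay in the hypothalamus with 35 UMIs of the pair and 4 of neutrophil markers.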
